A study of Mus musculus with 23 samples.

Results

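The erythroid microRNAs miR-451a (MIMAT0001632), miR-144-3p (MIMAT0000156) and miR-486a-5p (MIMAT0003130) were taken from the deposited table by identifier. They were 3 of its 602 microRNA probes, and none of the 3 was missing. They were followed in alveolar type II cells (AT2, the epithelial cells that make surfactant) and lung endothelial cells (EC, the lining of blood vessels) at 6 stages, embryonic days E16.5 and E18.5 and postnatal days P1, P7, P14 and P28. The question was how much red cell microRNA came through the sorts before and after birth. All samples were from wild-type C57BL6 mice with no treatment named. AT2 columns are labelled CD326, an epithelial surface protein, and EC columns CD31, an endothelial one. There were 13 AT2 samples (2 at each stage and 3 at P28) and 10 EC samples (2 at each stage, but 1 at E18.5 and 1 at P1). Nothing in the labels ties samples to separate animals, and p-values therefore cover only the variation among these samples, part of which may be technical.

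Red cell precursors make miR-451a and miR-144 from 1 primary transcript, switched on by the erythroid factor GATA1. miR-451a is among the most abundant microRNAs of red cells. It is the best known microRNA matured by the slicing protein Ago2 without Dicer, and it lowers the signalling adaptor Ywhaz. Mice that lack the shared locus have red cells that are sensitive to oxidants. miR-486 lies within Ank1, the gene of the red cell membrane protein ankyrin, and is abundant in red cells and in muscle. Mature red cells keep microRNAs after they lose the nucleus, so these microRNAs are often read as a sign of blood in a sample of another tissue.

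The sequences show how the pair on mouse chromosome 11 is built. They are RefSeq's, on build GRCm38.p6, plus strand, and the table held them for 2 of the 3 microRNAs. In the mature forms the capitals mark the seed, bases 2 to 8, which pairs with targets. In the hairpins the capitals mark the mature microRNA.

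mmu-miR-451a: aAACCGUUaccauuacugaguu

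Mir451a hairpin: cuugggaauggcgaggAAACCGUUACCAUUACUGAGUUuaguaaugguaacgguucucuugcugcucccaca

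mmu-miR-144-3p: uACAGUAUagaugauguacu

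Mir144 hairpin: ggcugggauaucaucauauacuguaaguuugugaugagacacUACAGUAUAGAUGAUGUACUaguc

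The mature miR-451a is 22 bases at chr11:78073186-78073207 and fills positions 17 to 38 of its 72-base hairpin, so it reaches past the middle into the loop. The mature miR-144-3p is 20 bases at chr11:78073047-78073066 and fills positions 43 to 62 of its 66-base hairpin, on the 3′ arm. The hairpins lie 99 bases apart. The seeds differ, and 0 other mature mouse microRNAs of the 1679 in the table carry either one. Mir451b is annotated on the opposite strand over the same bases as Mir451a. Mir486 lies at chr8:23142555-23142682 within Ank1 and overlaps Mir3107.

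The deposited values are nCounter counts (molecules counted by barcoded probes) times 1 factor per sample. Factors ranged from 0.296 to 7.43 in AT2 and from 0.394 to 7.93 in EC, and dividing by them gave back whole counts. Recovered microRNA counts per sample ranged from 26640 to 559503 in AT2 and from 36373 to 571724 in EC. A probe was called above background in a sample where its count passed the mean plus 2 SD of 8 low control rows. Because a larger factor also lifts background, the mean scaled background was 7.45 ± 6.20 in AT2 (SD, n = 13) and 21.0 ± 12.1 in EC (SD, n = 10). In AT2 P28 replicate 1 the 8 control rows were all at 1 count, so its limit is 1 count. All 23 samples had their highest correlation, across tested microRNAs, within their own cell type. EC P14 replicate 2 did so by the least, with a Pearson r of 0.938 against 0.932 with its nearest AT2 sample. Since the reference tables pair 0 of the 602 identifiers with names, the endothelial, epithelial and other marker lists could not be matched, and the cell type labels were not checked by named markers.

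Of the 3 microRNAs, miR-451a was the one seen in most samples, and mainly in EC. Its count passed the limit in 2 AT2 samples of 13 and in 7 EC samples of 10. Of all probes, 48.3% were above background in at least 2 AT2 samples and 25.9% in at least 7 EC samples. miR-144-3p passed it in 3 AT2 samples of 13 and in 3 EC samples of 10, while 45.5% of all probes did so in at least 3 AT2 samples and 35.4% in at least 3 EC samples. miR-486a-5p passed it in 1 AT2 sample of 13 and in 0 EC samples of 10, and 57.6% of probes were above in at least 1 AT2 sample. No sample had all 3 above background. In 9 AT2 samples and 3 EC samples (both at P14 and EC P28 replicate 1) none of the 3 was above.

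**Figure D1:**
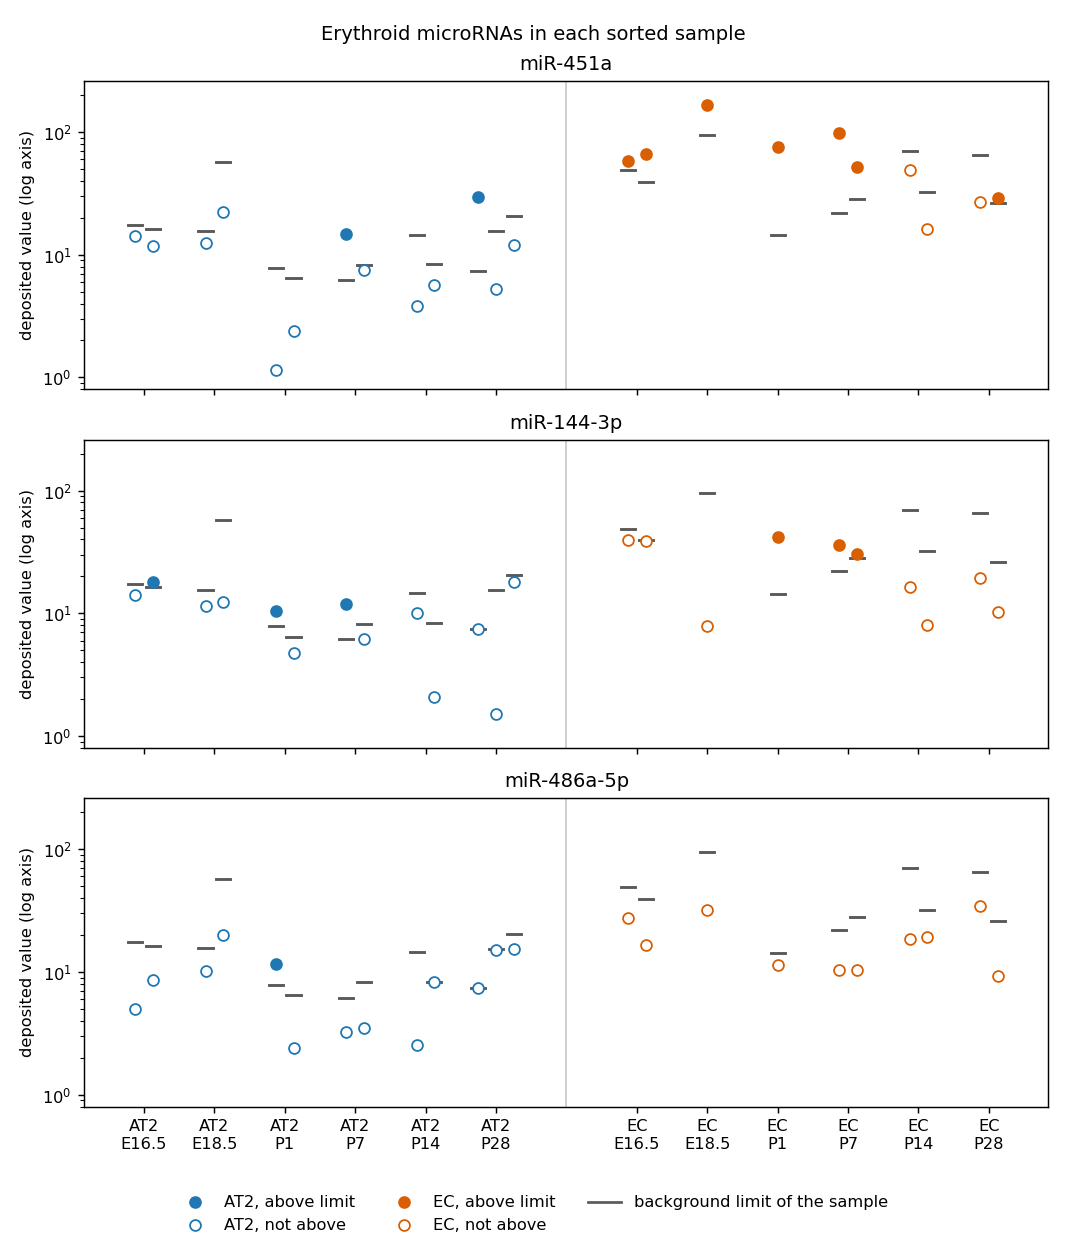
Deposited values (log axis) of the 3 microRNAs in every AT2 and EC sample by stage. Filled symbols are above the background limit of their own sample and open symbols are not. All EC symbols of miR-451a from E16.5 to P7 are filled, with 1 more at P28, while most AT2 symbols and nearly all of miR-486a-5p are open.

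In AT2 the miR-451a values, in stage order, were 14.2 and 11.7 at E16.5, then 12.5 and 22.3 at E18.5, then 1.16 and 2.38 at P1, 14.8 and 7.46 at P7, 3.79 and 5.64 at P14, and 29.7, 5.25 and 11.9 at P28. Only P7 replicate 1 and P28 replicate 1 were above background, and the second rests on 4 counts. No fetal AT2 sample was above background. In EC the miR-451a values were 58.0 and 66.6 at E16.5, then 166 at E18.5, then 76.0 at P1, 97.2 and 52.2 at P7, 49.4 and 16.09 at P14, and 27.0 and 28.8 at P28. All 6 EC samples from E16.5 to P7 were above background, against 1 of the 4 at P14 and P28. The limits on the deposited scale were unequal, at 69.7 and 32.2 for P14 and at 65.1 and 26.2 for P28. The EC values of 58.0 at E16.5 and 52.2 at P7 lie under the limits of P14 replicate 1 and P28 replicate 1. In those 2 samples, not being above background does not by itself show a level below E16.5 or P7. At each stage through P14 the EC values lay above both AT2 values, and at P28 the cell types overlapped through AT2 P28 replicate 1.

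The counts behind the high EC values were 19 and 24 at E16.5, then 21 at E18.5, then 193 at P1, and 84 and 60 at P7. The E18.5 value, the highest of the series, therefore rests on 21 counts in the shallowest EC sample, whose factor was 7.93. Over the mean of the control rows, the count was 4.31 times at E18.5, 12.4 times at P1, and 12.4 and 4.07 times at P7, so on that scale P1 and P7 replicate 1 stood highest. At E16.5 the same ratios were 2.11 and 3.0. They were 1.39 and 1.08 at P14, and 0.8 and 2.60 at P28. These ratios are not scaled to the microRNA counts of the sample, which were 36373 at E18.5, 571724 at P1, and 341502 and 374825 at P7. They can therefore rise with depth alone. With the control mean subtracted, CPM (counts scaled to the microRNA total of the sample) was 443 at E18.5, 310 at P1, and 226 and 121 at P7. By that measure E18.5 stood highest, so the order of these stages depends on the scale.

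miR-451a was a small part of the microRNA counts throughout. Its share was 0.00775% and 0.00740% in AT2 at E16.5, and the AT2 shares ranged from 0.00076% at P1 to 0.0150% at P28. In EC the share was 0.0162% and 0.0190% at E16.5 and 0.0577% at E18.5 (95% Wilson interval 0.0378% to 0.0882%). It was 0.0338% at P1 (0.0293% to 0.0389%) and 0.0246% and 0.0160% at P7. At P14 it was 0.0118% and 0.00779%, and at P28 0.00616% and 0.00916%. The E18.5 and P1 intervals overlap at their ends, and the difference between these single samples was not tested. Intervals cover counting error only, and background counts are included in the shares.

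**Figure D2:**
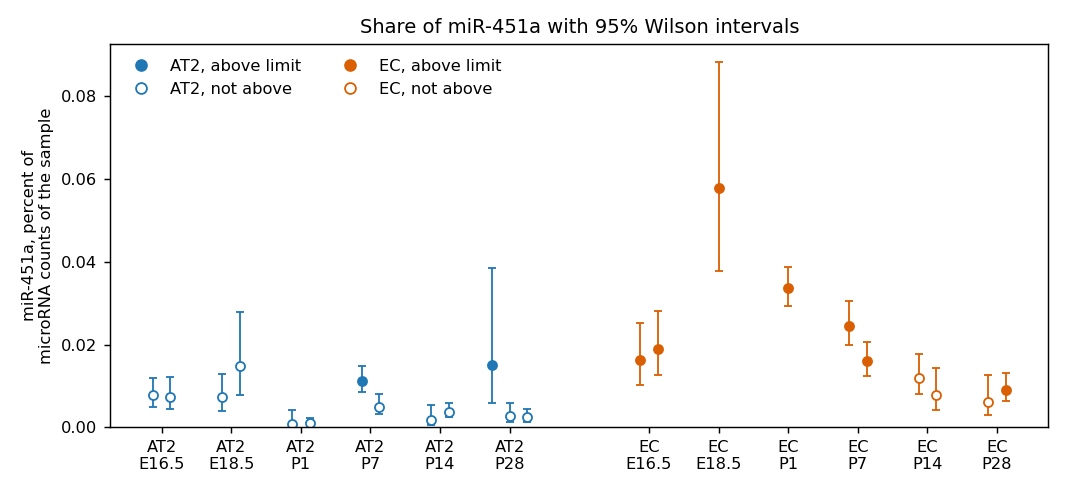
Share of miR-451a in the microRNA counts of each sample, in percent, with 95% Wilson intervals, by stage for AT2 and EC. EC E18.5 has the highest share, 0.0577%, with the widest of the high intervals, and the AT2 samples lie at or under 0.0150%.

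miR-451a was lower in AT2 than in EC. In the limma fit over 302 tested microRNAs the difference, averaged over the 6 stages, was -2.73 ± 0.29 on the log2(value + 1) scale (SE, adjusted p = 3.59e-07). Of all tested microRNAs 47.7% were called lower in AT2, and the median difference was -0.43. The 248 probes that were above background in no sample, taken as a measure of background itself, had a median of -1.08 with quartiles of -1.32 and -0.89. The miR-451a difference was larger in size than that, and it was -2.96 with background subtracted (adjusted p = 0.00016). It was -2.46 without the EC P1 sample, EC P14 replicate 2 and EC P28 replicate 2 (limma, adjusted p = 7.16e-06). The size moved with the scaling, to -2.10 with quantile normalization, -1.997 with samples scaled to the same microRNA total and -1.89 with a pseudocount of 10. With values under the highest limit of any sample raised to it, the difference was -0.14, where all values but those of EC E18.5 and EC P7 replicate 1 sit at that floor. With each AT2 value below its own limit raised to that limit, the EC geometric mean of the deposited values was at least 5.63-fold that of AT2 from E16.5 to P7, where all 6 EC samples were above background. This bound is for the deposited scale only and was not worked out for other scalings. In bulk samples fewer cells of a type and less RNA per cell cannot be told apart.

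The same held within specimens. An AT2 and an EC sample shared a title ID in 9 cases, taken here as specimens, and miR-451a was lower in AT2 in 8 of the 9. The mean log2 difference within them was -2.37 ± 1.48 (SD, n = 9). The widest gap was at P1, with 1.16 in AT2 against 76.0 in EC. The exception was a P28 specimen with 29.7 in AT2, from 4 counts, against 27.0 in EC, from 7 counts. In 6 specimens the EC sample alone was above background, in 1 the AT2 sample alone, in 1 both and in 1 neither. By value, miR-486a-5p was also lower in AT2 in 7 of the 9, with a mean of -1.26 ± 1.06 (SD, n = 9). Its EC sample was above background in 0 of them. By count over the mean of the control rows, miR-451a was lower in AT2 in 8 of the 9 and miR-486a-5p in 4.

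**Figure D3:**
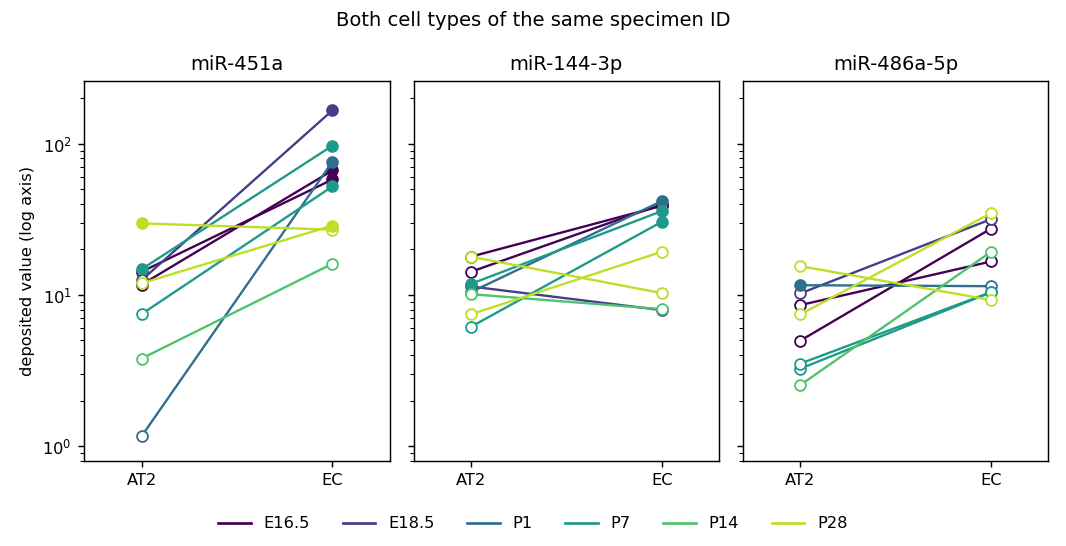
Deposited values (log axis) of the 3 microRNAs in the AT2 and EC samples that share a title ID, joined by lines. Filled symbols are above background. For miR-451a 8 of 9 lines slope up to EC, with filled EC ends in 7, while for miR-486a-5p a single AT2 end is filled.

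miR-144-3p, the 3′ arm of the partner hairpin, was above background in 6 of the 23 samples. Its AT2 values were 14.2 and 17.9 at E16.5, then 11.4 and 12.4 at E18.5, then 10.4 and 4.77 at P1, 11.8 and 6.15 at P7, 10.1 and 2.08 at P14, and 7.43, 1.5 and 17.9 at P28. The AT2 samples above background were E16.5 replicate 2, P1 replicate 1 and P7 replicate 1. Its EC values were 39.7 and 38.9 at E16.5, then 7.93 at E18.5, then 41.8 at P1, 35.9 and 30.5 at P7, 16.5 and 8.05 at P14, and 19.3 and 10.3 at P28. Only the EC samples of P1 and P7 were above background, with 106 counts at P1 and 31 and 35 at P7. The count was 6.78 times the mean of the control rows in EC P1, and 4.59 and 2.37 times at P7, against 4.10 times at most in AT2. The EC E18.5 value is a single count.

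miR-144-3p differed between AT2 and EC by -1.18 ± 0.33 on the log2(value + 1) scale (SE, limma, adjusted p = 0.0050). That lies within the quartiles of the 248 probes never above background. The call was lost with background subtracted (-0.65, adjusted p = 0.142) and with samples scaled to the same microRNA total (-0.46, adjusted p = 0.222). Within specimens miR-144-3p was lower in AT2 in 6 of 9 by value but in 3 of 9 by count, which is not scaled between samples. By CPM (counts scaled to the microRNA total of the sample) it was lower in AT2 in 5 of 9. At P1 and P7 it had 68.1, 21.4, 90.5 and 41.6 CPM in AT2, against 185, 90.8 and 93.4 CPM in EC. By that measure EC P1 stood apart, while AT2 P7 replicate 1 and the EC P7 samples lay close together.

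miR-486a-5p was listed near background in both cell types. Its values ranged from 2.38 to 19.8 in AT2 and from 9.25 to 34.7 in EC. The AT2 sample above background was P1 replicate 1, with 10 counts and a value of 11.6. Its count over the mean of the control rows had a median of 1.00 in AT2 and 0.919 in EC, with a highest ratio of 3.20 in AT2 and 1.86 in EC. It did not pass the filter (above background in at least 2 samples) and was not tested with the others. In the fit of all 602 probes it differed by -1.22 ± 0.31 between AT2 and EC (SE, limma, adjusted p = 0.0014), also within the quartiles of the probes never above background, and 67.8% of probes were called lower there. No AT2 or EC level of it is therefore given beyond these values.

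The pooled postnatal mean of miR-451a in EC stood below the fetal mean, short of the threshold. Postnatal minus fetal in EC (P1 to P28 against E16.5 and E18.5) gave -1.14 ± 0.48 for miR-451a (SE, limma, adjusted p = 0.0663), which did not pass, while 30.8% of tested microRNAs were called lower. The 7 postnatal EC values had a lowest of 16.09, a median of 49.4 and a highest of 97.2. The 3 fetal EC samples had 58.0, 66.6 and 166, so the groups overlap. Mean log2(value + 1) was 5.98 at E16.5, 7.39 at E18.5 (1 sample), 6.21 over P1 and P7, and 4.86 over P14 and P28. The low postnatal values thus lay at P14 and P28, while P1 and P7 lay near E16.5. Without the E18.5 sample the postnatal minus fetal difference was -0.44 (limma, adjusted p = 0.518). It passed in other settings, at an adjusted p of 0.048 without the filter and 0.0350 without the P1 sample. The probes never above background had a median of -1.41 in this comparison, lower than miR-451a. The F-test for any difference among the 6 stages in EC did not pass (F = 3.05, adjusted p = 0.0970, 27.2% of microRNAs called).

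In AT2, miR-451a was called lower after birth, on values of which 2 of 13 were above background. The 9 postnatal AT2 values had a lowest of 1.16, a median of 5.64 and a highest of 29.7, against 11.7, 12.5, 14.2 and 22.3 in the 4 fetal ones. The difference was -1.17 ± 0.40 (SE, limma, adjusted p = 0.0219), where 40.4% of tested microRNAs were called lower and the probes never above background had a median of -0.86. The call was kept in 9 of the 14 other limma settings. It was lost with background subtracted (-0.09, limma, adjusted p = 0.928). The call was also lost without AT2 E16.5 replicate 1 (-1.10), E16.5 replicate 2 (-1.23) or E18.5 replicate 2 (-0.97).

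The step across birth itself, P1 minus E18.5 in AT2, gave -2.71 ± 0.66 for miR-451a (SE, limma, adjusted p = 0.0196), and 5.96% of tested microRNAs were called lower. The values were 1.16 and 2.38 at P1, against 12.5 and 22.3 at E18.5, with 1 and 6 counts at P1 against 11 and 9 at E18.5. None of these 4 samples was above background. The probes never above background had a median of -2.73 for the EC step below. For this AT2 step their median was -1.56, with quartiles of -2.07 and -1.09. All E18.5 samples carry the title prefix LMM.15 and all P1 samples LMM.16, so within this step prefix and stage cannot be told apart, and with the prefix as a term the call was lost (-2.23, limma, adjusted p = 0.335). The call was also lost when E18.5 replicate 2 (-2.32), P1 replicate 1 (-2.39) or P1 replicate 2 (-3.04) was left out. It was kept in 9 of the 14 other limma settings. In EC the same step, 1 sample against 1 with the spread borrowed from the other groups, was -1.12 ± 0.93 (SE, limma, adjusted p = 0.496), with 1.32% of microRNAs called in either direction. The F-test over the 6 AT2 stages passed (F = 5.05, adjusted p = 0.0136), as it did for 49.0% of tested microRNAs, but not without AT2 P1 replicate 1 (F = 2.81, adjusted p = 0.0898). This F-test passed in 8 of the 14 other limma settings.

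miR-144-3p did not pass the test across birth in either cell type. Postnatal minus fetal was -0.96 ± 0.46 in AT2 (SE, limma, adjusted p = 0.0887) and 0.27 ± 0.56 in EC (SE, limma, adjusted p = 0.679). The EC value turned to -0.81 without the E18.5 sample and to -0.02 without the P1 sample. P1 minus E18.5 was -0.66 ± 0.77 in AT2 (SE, limma, adjusted p = 0.537) and 2.26 ± 1.09 in EC (SE, limma, adjusted p = 0.225), the second against the single count at E18.5. Neither F-test over the 6 stages passed, with F = 1.11 in AT2 (adjusted p = 0.441) and F = 2.31 in EC (adjusted p = 0.173). The EC stage test passed with background subtracted (F = 8.56, limma, adjusted p = 0.0040), with a pseudocount of 10 (adjusted p = 0.029) and with quantile normalization (adjusted p = 0.037). The AT2 postnatal minus fetal difference passed with samples scaled to the same microRNA total (-1.15, limma, adjusted p = 0.0327) and with array weights (-1.12, adjusted p = 0.0216).

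**Figure D4:**
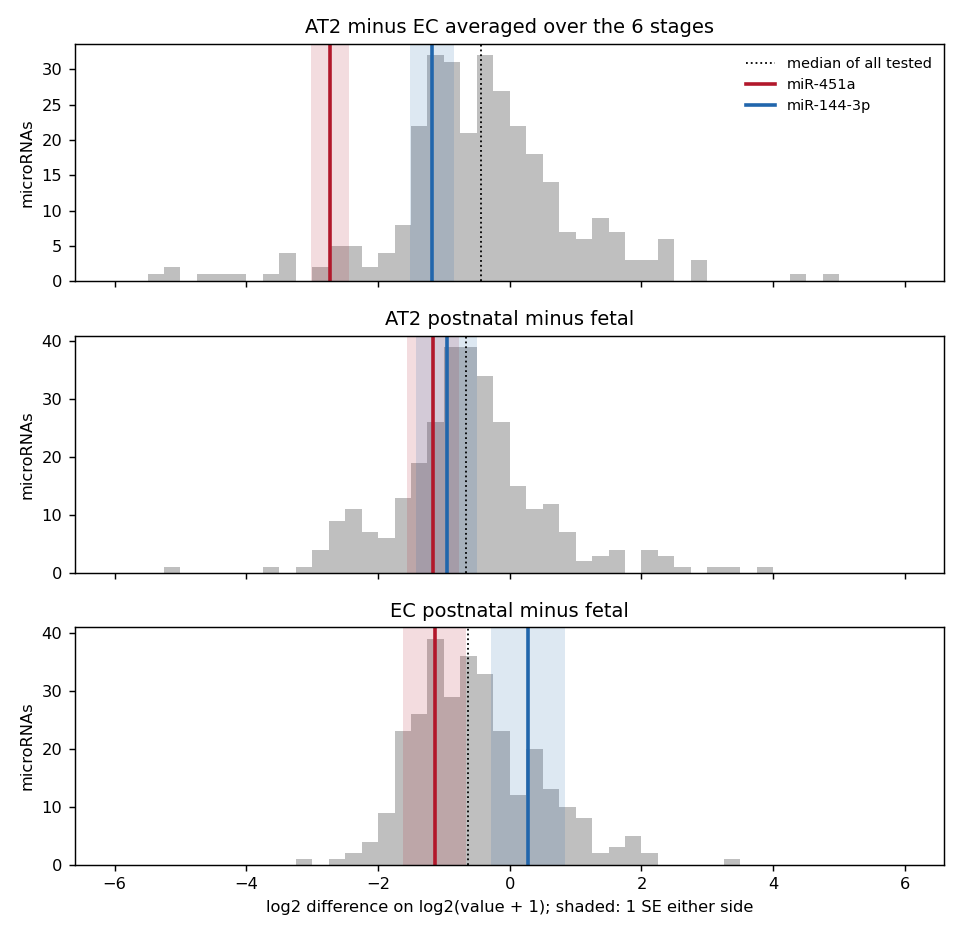
Histograms of the log2 differences of all tested microRNAs in each comparison, on the log2(value + 1) scale, with lines for miR-451a and miR-144-3p and 1 SE shaded either side. miR-451a lies at -2.73 for AT2 minus EC and at -1.17 and -1.14 for postnatal minus fetal in AT2 and in EC, where the medians of all tested microRNAs are -0.43, -0.66 and -0.64.

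The difference between the cell types in the change across birth did not pass the test for either microRNA. The AT2 change minus the EC change was -0.03 ± 0.62 for miR-451a (SE, limma, adjusted p = 0.991) and -1.23 ± 0.73 for miR-144-3p (SE, limma, adjusted p = 0.465). Of all tested microRNAs 1.66% were called in this comparison.

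Ratios of the microRNAs within a sample were taken as differences of log2(value + 1). The log2 ratio of miR-451a to miR-144-3p, postnatal minus fetal, was -0.10 in AT2 (exact permutation test, two-sided, p = 0.909) and -0.80 in EC (exact p = 0.533). For miR-451a to miR-486a-5p it was -0.50 in AT2 (exact p = 0.537) and -0.32 in EC (exact p = 0.75), and the adjusted p was 0.909 for each of the 4 tests. In 0 samples were miR-451a and miR-486a-5p both above background, so the last 2 ratios are set against a probe at background and show nothing about the pair. No fetal sample had both miR-451a and miR-144-3p above background. The tests of that ratio therefore cannot show whether it changed after birth. The smallest p these designs allow is 0.0028 in AT2 and 0.0167 in EC. Both microRNAs of the shared transcript were above background in 1 AT2 sample, P7 replicate 1, with a count ratio of 1.25, and in 3 EC samples, with count ratios of 1.82 at P1 and 2.71 and 1.71 at P7. These counts come from different probes, so they are not relative amounts of the 2 microRNAs.

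The relation of miR-451a to miR-144-3p across samples depended on the scale and passed no adjusted test. On log2(value + 1), Pearson's r over the 13 AT2 samples was 0.37 (permutation p = 0.211, adjusted over 6 relations 0.422) and Spearman's rho was 0.47 (permutation p = 0.111, adjusted 0.221). Without the 2 samples farthest from the median, both at P1, r was 0.50. Over the 10 EC samples r was 0.31 (permutation p = 0.376, adjusted 0.563) and rho was 0.33 (permutation p = 0.349, adjusted 0.419), and without EC E18.5 and EC P14 replicate 2 r was 0.81. Both other scales were added after seeing the data. With background subtracted, r was 0.18 in AT2 (permutation p = 0.566, adjusted 0.566) and 0.59 in EC (permutation p = 0.0758, adjusted 0.228). As counts over the mean of the control rows, which takes out the factor, r was 0.19 in AT2 (permutation p = 0.529, adjusted 0.566) and 0.70 in EC (permutation p = 0.0235, adjusted 0.141). Counts over controls are not scaled to the microRNA total of the sample, and both microRNAs share the same divisor. Samples can therefore vary together on that scale without a relation of the microRNAs. The rho values on these scales were 0.31 and 0.20 in AT2 and 0.59 on both in EC, with an adjusted permutation p of 0.419, 0.516 and 0.221. The EC values rest on few samples: without the 2 farthest, r was 0.40 with background subtracted and 0.25 for counts over controls, the second without the P1 sample and P7 replicate 1. Whether AT2 and EC differ in this relation was not tested.

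Among the 206 other microRNAs above background in at least 12 samples, the patterns most like miR-451a over the 23 samples were those of MIMAT0000648 (r = 0.86) and MIMAT0004704 (r = 0.85), against a median r of 0.26. Both were lower in AT2, with mean log2(value + 1) of 5.22 for MIMAT0000648 in AT2 against 9.02 in EC, and of 3.75 for MIMAT0004704 in AT2 against 6.96 in EC. The highest r was 0.77 for miR-144-3p and 0.83 for miR-486a-5p. The files give no names for these probes.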

How the data were processed

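Per the labels' protocols, total RNA of sorted lung cells was read on NanoString's mouse panel of microRNA probes. Build mm10 is named in the submitters' processing notes, with no tool. How the values were normalized is not given in the sources used here. Values that the authors deposited are a signal, counts times 1 factor per sample, as the values show: 100% of values not listed at 1 were whole multiples within a tolerance of 0.1 count, and 215 of 14076 were listed at 1. The table holds 626 rows and 23 columns, assigned by the sample descriptions, and groups came from cell type and age.

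A microRNA was tested if it was above the background limit in at least 2 samples (302 of 602). limma 3.58.1 (R 4.3.3; lmFit, eBayes with trend) was run on log2(value + 1) with 12 group means. Two-sided p-values were adjusted by Benjamini-Hochberg over all tested microRNAs, with 0.05 as the threshold. Fold changes on that scale understate changes of low probes. The method was tested on simulated data. Ratios and correlations used scipy 1.17.1. The named microRNAs were the 3 members and, by r over all samples, those most like them. The members, lists and tests were chosen with earlier results of these data known. Of 8 marker lists by name, 0 could be matched. Other scalings, filters, pseudocounts, background treatments and left-out samples were tried.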

Additional observations from a re-analysis of the deposited data

How the results depend on the processing

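Of 240 values under other settings 191 were counted as unchanged, as were 380 of 410 values with 1 sample left out. For tests, unchanged meant the same side of the threshold and no reversed sign, with a value of 0 not taken as reversed. The 240 include numbers of samples above background, for which unchanged meant a similar number. The AT2 minus EC difference of miR-451a passed in all 14 other limma settings, at -0.14 (common floor) to -2.96, and with each of the 23 samples left out, at -2.31 to -2.86. With the common floor only EC E18.5 and EC P7 replicate 1 kept their miR-451a values, so almost no spread was left. With values below their own sample's limit raised to it, 2 of the 13 AT2 and 7 of the 10 EC values stayed as measured. Passes in these settings add little. The planned count tests were not run, since the recovered counts were not accepted as whole counts for 10 columns. Values were listed at 1 in 9 columns. Signal over background limits what can be read: miR-451a was above background in 9 and miR-144-3p in 6 of 23 samples.

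For miR-144-3p, AT2 minus EC was -0.40 with quantile normalization, -0.46 scaled to the total, -0.65 with background subtracted and 0 with a common floor. For miR-451a, AT2 postnatal minus fetal was -0.35 with a median shift, -0.25 with quantile normalization, -0.54 with a pseudocount of 10, -0.091 with background subtracted and 0 with the common floor. For miR-451a, EC postnatal minus fetal was -1.14 without the filter and with array weights, -0.99 with pseudocount 10 and -0.40 with the common floor. For miR-451a, AT2 P1 minus E18.5 was -1.47 (quantile), -1.20 (pseudocount 10), -2.23 (title prefix as a term, which stage P1 against E18.5 coincides with; call lost), 0 (common floor) and -0.50 (background subtracted), and EC P1 minus E18.5 was -0.80 with the common floor. The AT2 minus EC difference of the change in miR-451a turned to 0.20 (median shift), 0.60 (quantile), 0.45 (pseudocount 10), 0.015 (title prefix), 0.40 (common floor) and 1.74 (background subtracted). For miR-144-3p, AT2 postnatal minus fetal was -1.15 scaled to the total, -1.12 with array weights and -1.07 with values raised to their own limit, each passing, and AT2 P1 minus E18.5 was 0.42 (quantile), 1.07 (background subtracted) and -1.75 (own limit). For miR-144-3p, EC postnatal minus fetal was -0.81 without the 2 samples of lowest count and -0.66 with the own limit, and EC P1 minus E18.5 was -1.17 with the own limit. The own-limit setting put all but 3 of the 13 AT2 values and all but 3 of the 10 EC values of miR-144-3p at their sample's limit. Its differences for miR-144-3p therefore largely compare background limits, and its pass shows nothing about that microRNA. The stage F of miR-451a in AT2 was 3.14 (quantile), 2.33 (pseudocount 10), 3.31 (title prefix), 0 (common floor), 0.978 (background subtracted) and 2.79 (own limit). In EC it was 5.04 (pseudocount 10), 2930 (common floor, where almost no spread is left) and 4.08 (background subtracted). The stage F of miR-144-3p in EC was 4.42 (quantile), 4.47 (pseudocount 10) and 8.56 (background subtracted), each passing. The log2 ratio of miR-451a to miR-144-3p across birth in AT2 was 0.15 with background subtracted. With the highest control row as the limit, 2 AT2 samples held miR-486a-5p. The own-limit, lowest-count and control-row settings were chosen after seeing the data. The cause of these changes was not tested.

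With 1 sample left out, miR-451a ranged from -1.36 to -0.97 (AT2 postnatal minus fetal), from -1.38 to -0.44 (EC postnatal minus fetal), from -3.11 to -2.32 (AT2 P1 minus E18.5) and from -0.73 to 0.22 (difference of the changes), and its stage F from 2.81 to 7.23 in AT2 and from 2.05 to 4.11 in EC. miR-144-3p ranged from -1.19 to -0.73 (AT2 postnatal minus fetal) and from -0.81 to 0.39 (EC postnatal minus fetal). The ratio of both ranged from -0.33 to 0.20 in AT2 and from -1.45 to 0.40 in EC.

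AT2 and EC samples with the same title ID deviated together in 6 of 7 pairs (r over 0.1; range -0.02 to 0.308), so the pairing is a hint only. At E16.5 and at P7 both cell types held the same specimens, so the pairs of such a stage have the same r by construction. The 7 pairs are therefore not all separate values. With the replicate block (consensus correlation 0.231) the difference of the changes in miR-451a was 0.051, not called in either fit, and no call of miR-451a or miR-144-3p changed. miR-486a-5p was not in that fit.

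Counts of called microRNAs also moved. AT2 minus EC had 203, 467 without the filter and 110 with the common floor. AT2 postnatal minus fetal had 153, 244 without the filter and 81 with the floor. EC postnatal minus fetal had 116, and 44 to 318 elsewhere. The difference of changes had 5, and 2 to 43 elsewhere, with 21 in the block. AT2 P1 minus E18.5 had 26, and 0 to 142. EC P1 minus E18.5 had 4, and 0 to 191. The stage F-test had 148 in AT2, and 85 with the floor, and 82 in EC, and 38 to 189.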
